A study of Homo sapiens with 49 samples.

Results

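The binding of MAX was mapped by chromatin immunoprecipitation followed by sequencing (ChIP-seq) in T-47D cells, a human breast ductal carcinoma line with estrogen receptor, with 1 library from vehicle-treated and 1 from estradiol-treated cells. The members described are all regions of these 2 lists: 199 regions of the DMSO list and 1492 of the 17β-estradiol (E2) list, out of 528044 regions in the 45 lists of the series. Regions of both lists that overlapped by at least 1 bp were joined, which gave 1580 combined regions. Of these, 109 were shared (6.90%), 1383 were in the E2 list only and 88 (5.57%) in the DMSO list only, so the E2-only class made up 87.5% of all regions. In the study, MAX was considered as a promoter-bound factor that can bring in the co-repressor SIN3A and so bear on how fast genes answer to estrogen.

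Except for the SIN3A library of full medium, T-47D cells were kept for 5 days in medium without phenol red and with charcoal-stripped serum, which removes hormones. For MAX and other proteins, chromatin was taken 1 h after adding 10 nM E2 or vehicle, and for histone modifications 8 h after it. Only the SIN3A lists compare media, stripped against full, and not hormone. Ishikawa cells, a human endometrial adenocarcinoma line treated in the same way, supplied a DMSO and an E2 list of MAX regions of their own, 3368 and 2002 in number. Nothing was replicated except T-47D RNA polymerase II (RNAPII), with 2 libraries per treatment, so the differences between the MAX lists have no replicate check and no test was made. The intervals given are exact (Clopper-Pearson) 95% binomial intervals and cover counting error only.

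MAX is a small basic helix-loop-helix leucine zipper protein. It binds DNA as a pair, either with itself or with a partner: with MYC it activates growth genes, and with the MXD proteins or MNT it recruits SIN3A and histone deacetylases and represses them. The site of these pairs is the E-box core CACGTG, a palindrome, and they also take related sites such as CACGCG. Among the genes that such pairs are known to bind are those of ribosome production, nucleotide synthesis and glycolysis.

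The labelled cell type fitted its promoter marks. In the T-47D H3K4me3 list of DMSO-treated cells, H3K4me3 being a mark of active promoters, 11 of 12 luminal breast genes carried a region at a start site, among them ESR1, PGR, GATA3 and FOXA1, with TFF1 missing, while 1 of 6 endometrial genes did (WT1). In Ishikawa cells the numbers were 7 of 12 and 5 of 6. Some other lists went against their labels or were very short. The T-47D list labelled H3K27me3 DMSO, a repressive mark, overlapped H3K4me3 at 85.7% of its 6305 regions and is therefore not used as evidence of repression. In 6 lists of other antibodies or conditions there were between 42 and 137 regions (a further list, Ishikawa MYC with E2, held 2), and T-47D MAX regions that were also found in one of these 6 short lists were counted separately.

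Summit sequences of the strongest regions are shown because E2-only regions held the E-box less often than shared and DMSO-only regions, although single strong promoters need not follow this. Each line gives the plus strand of GRCh37 (hg19) around the summit, the base with the highest pileup, without annotated UTR bases, and capitals mark CACGTG and CACGCG, the latter read on either strand. Shown first are 3 of the 5 strongest shared regions that reach to within 250 bp of a protein-coding start, in which no stretch holds CACGTG. For shared regions the summit is that of the E2 list, and the DMSO summit may lie elsewhere. The summit of WIPI1 lies 288 bp from the nearest such start. Each stretch reaches at most 40 bp from the summit, so that sites farther out, such as the CACGTG of WIPI1 within 100 bp, are not shown.
TMEM184A, chr7:1595936-1596016: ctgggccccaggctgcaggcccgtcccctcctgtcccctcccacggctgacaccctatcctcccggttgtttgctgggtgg
WIPI1, chr17:66453902-66453982: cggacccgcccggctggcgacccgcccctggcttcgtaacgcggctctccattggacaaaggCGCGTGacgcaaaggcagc
CNNM2, chr10:104677809-104677889: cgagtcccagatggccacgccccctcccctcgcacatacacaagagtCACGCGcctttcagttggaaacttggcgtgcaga

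Of the 6 strongest E2-only regions at such starts, 4 are shown. The core is in the stretches of ANGEL1 and UNG, and that of COQ8A holds CACGCG. ZNF318 has its core between 40 and 100 bp from the summit, outside the stretch shown.
COQ8A, chr1:227127830-227127910: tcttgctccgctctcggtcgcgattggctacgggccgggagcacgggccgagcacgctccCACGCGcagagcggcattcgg
ANGEL1, chr14:77279226-77279275: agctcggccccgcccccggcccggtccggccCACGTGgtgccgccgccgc
ZNF318, chr6:43337423-43337503: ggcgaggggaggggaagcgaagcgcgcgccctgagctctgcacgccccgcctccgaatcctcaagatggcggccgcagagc
UNG, chr12:109535680-109535760: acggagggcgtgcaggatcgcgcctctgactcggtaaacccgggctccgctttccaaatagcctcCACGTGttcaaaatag

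Away from promoters, the strongest regions with a core in this window were chosen after their values were seen. SSPN stands for the shared class, and RASSF5, KALRN and RHBDF2 for regions found with DMSO only. SSPN and RASSF5 hold 2 copies each.
SSPN, chr12:26267415-26267495: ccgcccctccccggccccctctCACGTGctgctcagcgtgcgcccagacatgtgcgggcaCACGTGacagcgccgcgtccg
RASSF5, chr1:206718258-206718338: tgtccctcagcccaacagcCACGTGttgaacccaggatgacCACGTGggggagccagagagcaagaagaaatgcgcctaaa
KALRN, chr3:124269420-124269500: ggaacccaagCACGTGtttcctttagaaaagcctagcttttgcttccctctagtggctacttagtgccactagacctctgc
RHBDF2, chr17:74502607-74502687: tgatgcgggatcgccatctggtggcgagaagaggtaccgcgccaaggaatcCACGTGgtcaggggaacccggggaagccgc

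The number of MAX regions in T-47D cells was 7.5 times higher in the E2 list. The covered length was 33.7 kb with DMSO and 542 kb with E2, a ratio of 16.1. That ratio also holds a difference in region width, as the narrowest region was 120 bp wide with DMSO and 245 bp with E2. For scale, the RNAPII libraries of the same treatment differed from each other by 1.85 times with DMSO and 1.98 times with E2, and Ishikawa MAX had 1.68 times more regions with DMSO than with E2. Some other pairs of single libraries were farther apart than the T-47D MAX lists. Ishikawa RARA held 137 regions with DMSO and 2883 with E2, T-47D LSD1 42 and 442, and the list labelled T-47D H3K27me3 6305 and 107. MYC, the partner of MAX, had 601 regions with DMSO and 1822 with E2 in T-47D cells, a ratio of 3.03, and TAF1, a subunit of the general factor TFIID, had 1.23 times more with E2.

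Of the 199 DMSO regions, 111 overlapped the E2 list (55.8%, interval 48.6 to 62.8), and of the 1492 E2 regions, 109 overlapped the DMSO list (7.31%, 6.04 to 8.75). Cutting the E2 list to its 199 strongest regions by p-value left 57 of them (28.6%) in the DMSO list. The overlap therefore was partial also for lists of the same length. When both regions had to cover 50% of each other, 14.6% of DMSO regions remained shared, the DMSO regions having a median width of 159 bp and the E2 regions of 326 bp. Only 5 of the 88 DMSO-only regions had an E2 region within 1 kb.

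The libraries differed in more than their region number. Median fold enrichment, the ratio of ChIP pileup to local background at the summit, was 6.98 in the DMSO list and 10.7 in the E2 list. From the deposited fold and p-value the summit pileup could be recovered as 1 whole number, within 0.001, for 198 of 199 and 1492 of 1492 regions: the median was 34.5 tags with DMSO and 21.0 with E2, over median local backgrounds of 4.23 and 1.04 tags. The E2 regions thus had fewer summit tags over a lower background. Such counts depend on the fragment length used for the pileup, which is not given here. The narrowest region was 120 bp wide with DMSO and 245 bp with E2, so tags of the 2 lists may not be on one scale. In the Ishikawa lists the medians were 33.0 and 29.0 tags over 3.93 and 2.5. The lowest background of any region was 0.764 tags with DMSO and 0.210 with E2 in T-47D cells. The part of background and of library depth, which is not given in the sources used here, in the difference between the T-47D lists was not tested.

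At shared regions, fold enrichment was higher in the E2 list at 104 of 109, with a median ratio of 2.02 (quartiles 1.48 and 2.62), and 55 of them had at least 2 times the fold. Summit tags at the shared regions were not higher with E2, with medians of 35.5 with DMSO and 30.0 with E2, while the median local background was 4.30 tags with DMSO and 1.16 with E2. The higher fold was thus found together with a lower background and not with more tags, on tag scales that may differ between the lists. Over these 109 regions of the same pair of libraries, the ranks by fold in both lists gave a Spearman's rho of -0.0148, a description with no test. Within the E2 list, shared regions were the stronger ones, with a median fold of 14.4 against 10.5 for E2-only regions. Within the DMSO list both classes were alike in level, with medians of 6.98 for shared and 6.92 for DMSO-only regions. When the E2 regions were put in 4 bins of equal size by fold, 19.4% of the highest bin were shared and 5.09%, 2.96% and 1.88% of the next bins.

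**Figure D1:**
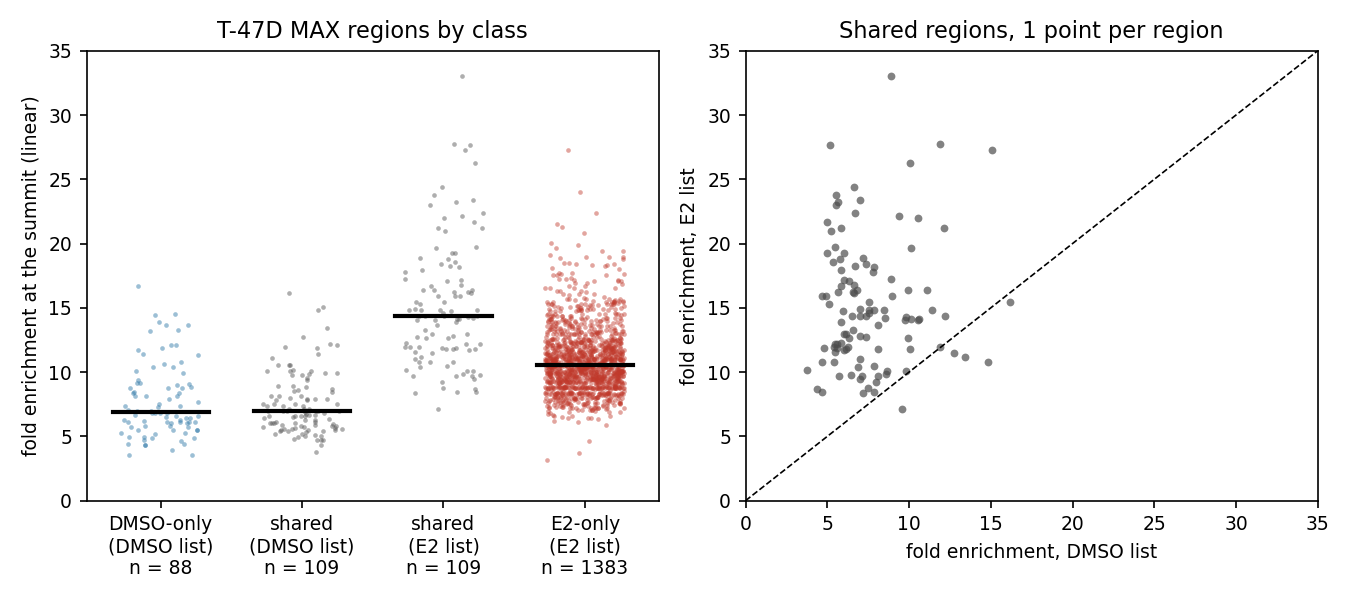
Left, fold enrichment at the summit (linear axis) of every T-47D MAX region by class and list, with the median as a bar. Right, fold in the E2 list against fold in the DMSO list for the 109 shared regions, with the line of equality dashed: 104 points lie above it.

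The strongest shared region by the lower of its 2 p-values was the divergent promoter of CCNE2 and NDUFAF6 on chromosome 8, where CCNE2 encodes cyclin E2, which drives entry into S phase. Its fold was 11.9 with DMSO and 27.7 with E2, over 62 and 46 summit tags. FBXO32, a ubiquitin ligase of muscle wasting, followed with folds of 9.37 and 22.2. At WIPI1, an autophagy protein that binds phosphoinositides, the folds were 6.67 and 18.2, and at CNNM2, a magnesium transporter, 9.74 and 14.1. LARP1, which holds back translation of mRNAs of the ribosome, had folds of 6.98 and 14.9. All 5 were also MAX regions in both Ishikawa lists. The other 5 of the 10 strongest shared regions at protein-coding starts were TMEM184A (folds of 8.44 and 14.8), SPRYD4 (10.6 and 14.1), PER1 (described with the circadian genes), the shared promoter of C1orf43 and UBAP2L (6.98 and 12.8) and that of FAM13A and TIGD2 (12.2 and 14.3).

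Among the strongest E2-only promoters, COQ8A, a kinase-like protein of coenzyme Q synthesis, had a fold of 19.1 over 67 tags. ANGEL1 had 22.4, ZNF318 24.0 and PLEKHF2, an endosomal protein, 20.8. UNG, which cuts uracil out of DNA, had a fold of 21.5 in T-47D cells with E2 and of 12 and 20.5 in the Ishikawa lists with DMSO and E2, and its region was also in 1 of the short lists. SHMT1, which feeds one-carbon units into nucleotide synthesis, reached 18.9 and PRMT3, an arginine methyltransferase, 18.4. POLR2I, a subunit of RNA polymerase II, had 20.0 and STAG1, a subunit of cohesin, 14.1. All 15 of the promoters taken by this rule carried T-47D H3K4me3 and RNAPII in E2-treated cells, and 6 of the 15 (ANGEL1, PLEKHF2, GSE1, HYLS1, B3GNTL1 and STAG1) carried MYC with E2, at folds between 5.07 and 13.5. In the MYC list of DMSO-treated cells were PLEKHF2 and a further 4 of the 15, MINDY2 (10.0), ATP13A3 (10.7), PRMT3 (9.53) and ADCK1 (8.29).

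Of the 5 strongest DMSO-only regions, none was at a promoter. They lay in an exon of SUN1, in introns of RASSF5 and KALRN, and between genes near ESRP1 and RHBDF2, with folds of 12.1, 13.9, 13.7, 10.1 and 11.7. Each held CACGTG within 100 bp of its summit. Each was also an Ishikawa MAX region with DMSO, at folds of 23.3, 21.1, 5.53, 5.16 and 8.50. The region in SUN1 overlapped RNAPII, JUN and SIN3A in full medium, and none of the other 4 overlapped H3K4me3, MYC, TAF1, JUN or RNAPII of E2-treated T-47D cells.

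Promoters held most of the shared and E2-only regions and fewer of the DMSO-only regions. A summit was called promoter-bound within 250 bp of an annotated transcription start, windows that cover 2.1% of the genome. This held for 76.1% of shared regions (interval 67.0 to 83.8), 82.1% of E2-only regions (80.0 to 84.1) and 39.8% of DMSO-only regions (29.5 to 50.8). The intervals of the DMSO-only class and of the other classes do not overlap. In Ishikawa cells 53.1% of the MAX regions with DMSO and 39.1% with E2 were at promoters, and in T-47D cells 68.3% of MYC and 90.0% of TAF1 regions with E2.

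Summits lay slightly upstream of the start site. Among summits within 1000 bp of a protein-coding start, the median position was 25.5 bp upstream for shared, 19.0 bp upstream for E2-only and 80.0 bp upstream for DMSO-only regions. Introns held 18.2% and intergenic sequence 34.1% of DMSO-only regions, against 7.10% and 6.81% of E2-only regions. Over 10 kb from any protein-coding start were 36.4% of DMSO-only, 11% of shared and 5.94% of E2-only regions.

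Regions of the short lists were more frequent in the DMSO-only class than in the others. In at least 1 of the 6 short lists were 18 of 88 DMSO-only regions (20.5%), 7 of 109 shared (6.42%) and 22 of 1383 E2-only regions (1.59%). A single short list, T-47D H3K27me3 with E2 (107 regions), overlapped 12 of the DMSO-only, 3 of the shared and 8 of the E2-only regions. Over all 43 other lists, by contrast, DMSO-only regions were found in fewer, a median of 10 against 20 for shared and 19 for E2-only regions, and 5 of the 88 were in none. Without the regions of the short lists the promoter share of DMSO-only regions was 44.3%, and that of the other classes 79.4% and 82.5%. Among the strongest shared regions, 1 near the centromere of chromosome 8, nearest to HGSNAT and with folds of 15.1 and 27.3, was in 4 of the short lists. Some of the strongest E2-only regions outside promoters and H3K4me3 were of this kind: LINC00486 on chromosome 2 was in 4 short lists, a region of chromosome X nearest to ZXDA in 3, and the region at chr1:121484581-121485474, whose fold was 3.69 over a background of 43.7 tags, in all 6. The other 2 were an intron of PMF1, with fold 12.9 and in 1 short list, and a site nearest to HHIPL2, with fold 11.7 and in none.

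E2 regions were unevenly spread over the chromosomes relative to active promoters. For each 100 H3K4me3 regions of E2-treated cells there were 8.71 MAX regions on chromosome 20, 8.00 on chromosome 8 and 7.27 on chromosome 17. Among the autosomes and chromosome X, the lowest values were 1.24 on chromosome X, 2.12 on chromosome 13 and 2.39 on chromosome 22. T-47D cells have an abnormal karyotype, and the part of copy number in this order was not tested.

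E2-only regions lay mostly at promoters marked as active, also by the lists of DMSO-treated cells. H3K4me3 of E2-treated cells covered 83.7% of E2-only regions (interval 81.7 to 85.6) and 73.4% of shared regions (64.1 to 81.4), and H3K4me3 of DMSO-treated cells 89.5% and 80.7%. RNAPII found in both E2 replicates covered 91.8% and 83.5%, and RNAPII of both DMSO replicates 81.4% and 76.1%. DMSO-only regions were lower throughout, with 36.4% in H3K4me3 and 38.6% in RNAPII of E2-treated cells. With only the first RNAPII E2 library, which had 46282 regions, the last share was 56.8%. H3K4me1, a mark of enhancers, covered 1 of 109 shared, 1 of 1383 E2-only and 2 of 88 DMSO-only regions, from a list of 1960 regions.

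Of the proteins, TAF1 with E2 was found at 59.6% of E2-only, 50.5% of shared and 18.2% of DMSO-only regions. JUN, a subunit of AP-1 whose E2 list held 24885 regions, covered 99.1%, 93.6% and 53.4%. The AP-1 site TGANTCA lay within 100 bp of 3.41% of these JUN summits, near the 3.07% of protein-coding start sites. Overlap with this list is therefore not read as overlap with AP-1 sites. RARA, a retinoic acid receptor, was at 4.27%, 3.67% and 5.68%, and these intervals overlap. LSD1, a histone demethylase, was at 6 of 1383, 3 of 109 and 1 of 88 regions with E2. SIN3A of cells in full medium, with 649 regions, was found at 30.3% of shared (21.8 to 39.8), 17.0% of DMSO-only (9.87 to 26.6) and 7.59% of E2-only regions (6.25 to 9.12). The SIN3A list of cells in stripped medium, the medium in which the MAX cells were kept, held 75 regions and covered 3, 5 and 9 regions of these classes.

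MYC, the activating partner of MAX, was found at shared and E2-only regions and rarely at DMSO-only regions. MYC with E2 was at 38.5% of shared (29.4 to 48.3), 32.9% of E2-only (30.4 to 35.4) and 3.41% of DMSO-only regions (0.709 to 9.64). With the shorter MYC list of DMSO-treated cells the shares were 18.3%, 16.2% and 0 of 88, which allows up to 4.11%. Read the other way, 27.6% of the 1822 MYC regions with E2 overlapped MAX with E2, and 2.41% overlapped MAX with DMSO. H3K4me3, MYC and TAF1 came together at 26 shared and 325 E2-only regions, or 23.9% and 23.5%, and at 2 DMSO-only regions.

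**Figure D2:**
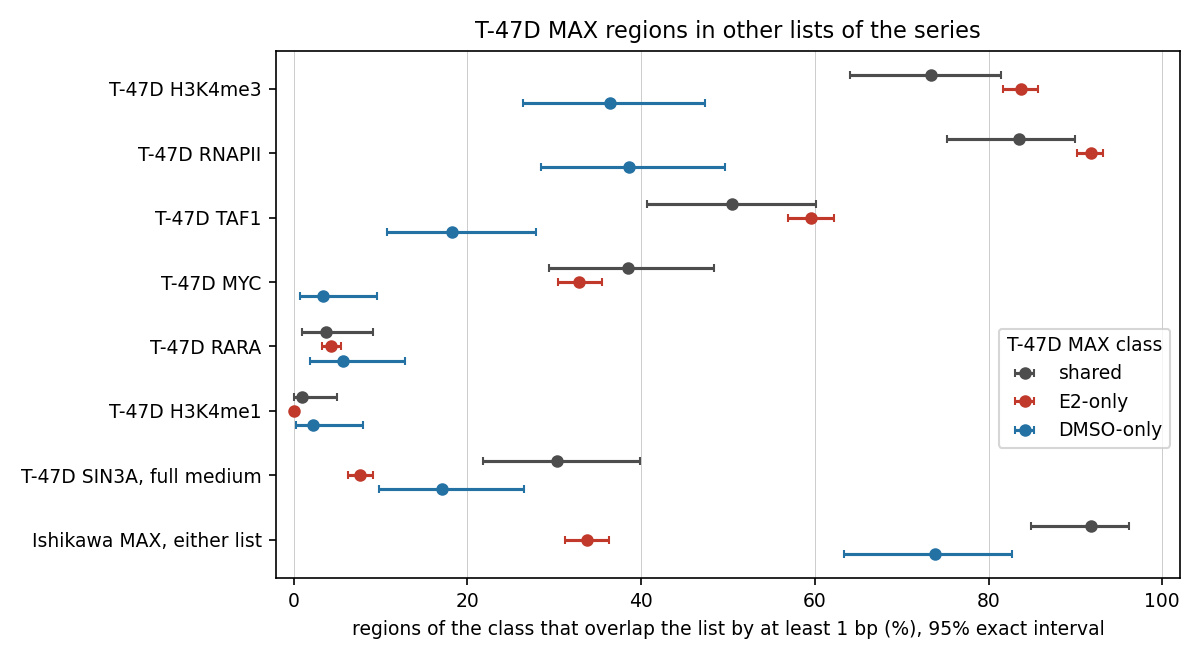
Share of T-47D MAX regions of each class that overlap another list by at least 1 bp (x axis, percent), with exact 95% intervals as bars. Marks and proteins of T-47D cells are those of E2-treated cells, RNAPII is the part found in both replicates, and SIN3A is from full medium. E2-only points lie highest for H3K4me3, RNAPII and TAF1, and lowest for H3K4me1, SIN3A and Ishikawa MAX.

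Ishikawa MAX regions, from either treatment, were found at 91.7% of shared (84.9 to 96.2), 73.9% of DMSO-only (63.4 to 82.7) and 33.8% of E2-only regions (31.3 to 36.3). Regions seen in T-47D cells without E2 were thus mostly MAX regions of the other cell line, whether or not they were also in the E2 list, and the E2-only regions mostly were not. The lists differ in length. For the 199 strongest E2 regions the value was 66.8% (59.8 to 73.3), against 83.4% (77.5 to 88.3) for the DMSO list. Across the 4 bins of the E2 list by fold it went from 58.6% in the highest to 32.7%, 33.6% and 27.3%.

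E2 regions found in Ishikawa MAX and those that were not were alike in place and marks. Promoters held 82.9% and 80.9% of them, T-47D H3K4me3 covered 82.4% and 83.4%, and MYC 35.3% and 32.1%. Ishikawa H3K4me3 covered 95.2% of the E2 regions with Ishikawa MAX and also 94.9% of the 925 without, so most of these regions carried this mark in the other line too. From the side of Ishikawa, 21.5% of the MAX regions shared by both of its treatments were in the T-47D E2 list, against 12.7% of its DMSO-only and 6.36% of its E2-only regions.

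E2-only regions held the E-box core less often than the other classes. Windows reaching 100 bp to either side of each summit held CACGTG at 73.4% of shared (64.1 to 81.4), 67.0% of DMSO-only (56.2 to 76.7) and 24.1% of E2-only regions (21.8 to 26.4). For the whole lists it was 75.4% with DMSO and 27.7% with E2, and for Ishikawa MAX 31.8% with DMSO and 33.4% with E2. By comparison, 5.68% of 19862 protein-coding start sites held the core in a window of this length, as did 7.23% of MYC, 5.55% of TAF1 and 6.94% of JUN summits of E2-treated T-47D cells and 22% of SIN3A summits in full medium. At 500 bp to either side of the summit the share was 4.13% for shared, 3.95% for E2-only and 1.72% for DMSO-only regions.

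**Figure D3:**
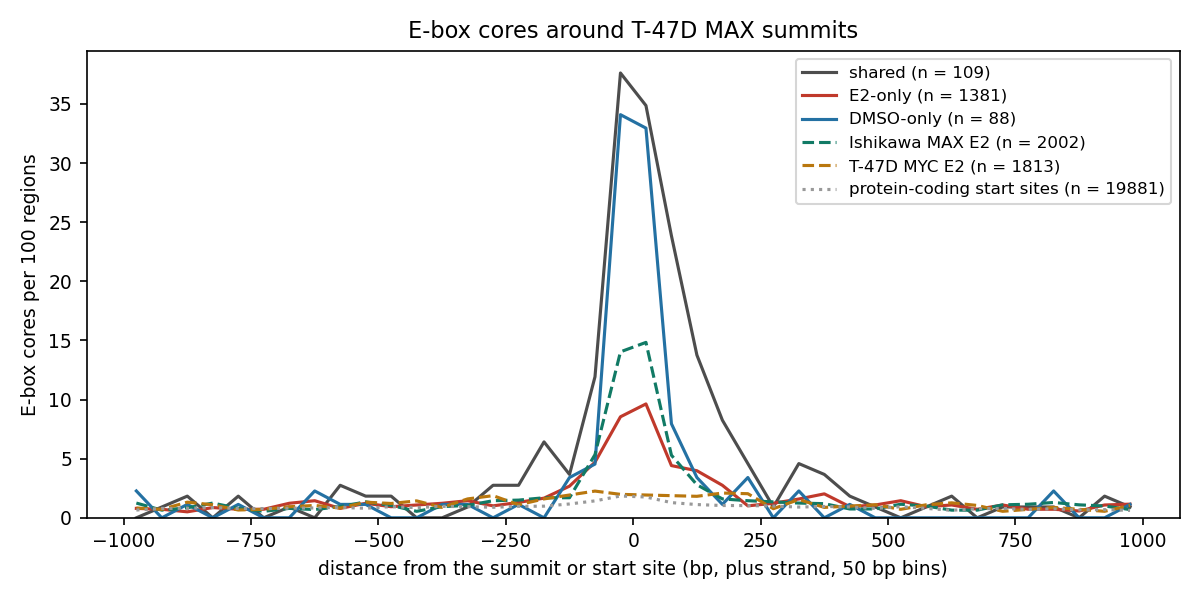
Number of E-box cores per 100 regions (y axis) in bins of 50 bp by distance from the summit, or from the start site for protein-coding genes (x axis, bp). Shared and DMSO-only regions peak at the summit at 37.6 and 34.1 cores per 100 regions in a bin, E2-only regions at 9.63, and MYC summits of E2-treated cells stay at 2.26 or less in every bin.

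The core was more frequent in stronger E2 regions. It was in 44.6% of the windows of the highest of the 4 bins by fold, and in 29.5%, 22.6% and 14% of the next bins. Even so, the 199 strongest E2 regions by p-value held it in 50.5% of windows (43.3 to 57.7), below the 75.4% (68.8 to 81.2) of the DMSO list of the same length. It was also more frequent at regions of the other cell line. Of E2-only regions found in Ishikawa MAX 37.9% held the core, and of the others 17.0%. Presence of MYC went with fewer cores, 20.4% of E2-only regions with MYC against 25.9% without, and 59.5% of shared regions with MYC against 82.1% without, and in both pairs the intervals overlap. Among E2-only regions the core was at 23.9% of those at promoters and 24.8% of the others.

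**Figure D4:**
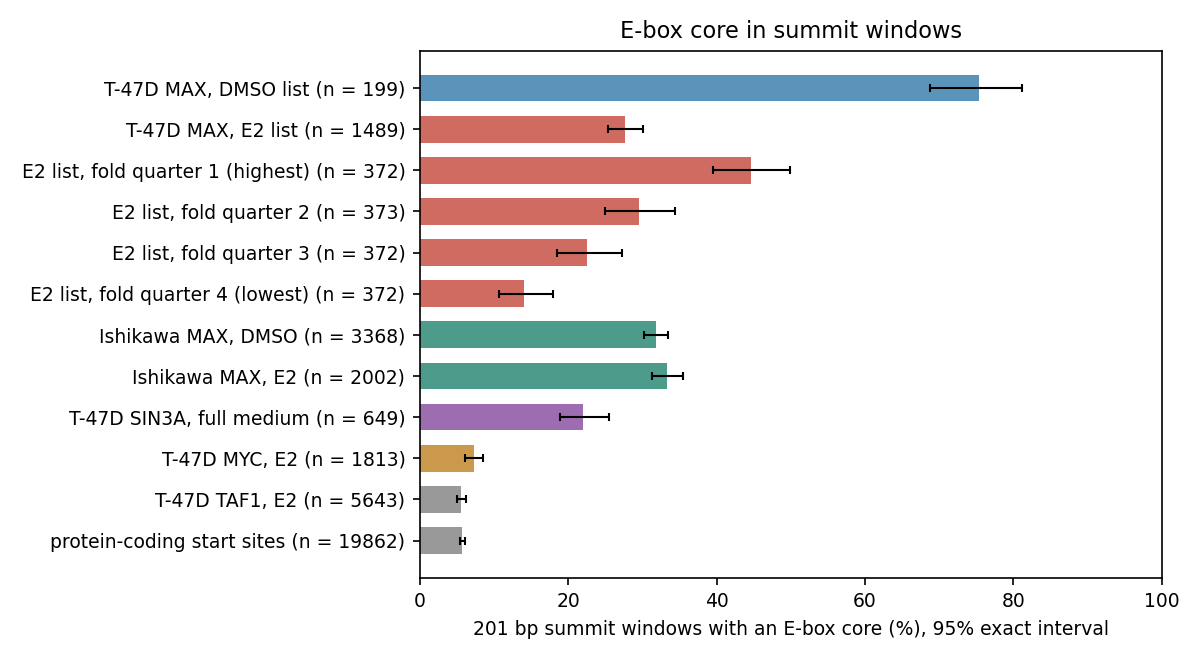
Share of summit windows, 100 bp to either side, with an E-box core (x axis, percent; bars with exact 95% intervals), for the T-47D MAX lists, for 4 bins of the E2 list by fold enrichment from highest to lowest, and for other lists and start sites. The DMSO list stands highest at 75.4%, the bins of the E2 list go from 44.6% to 14%, and start sites are at 5.68%.

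DMSO-only regions held the core with or without a promoter, at 68.6% and 66.0%. Without the regions of the 6 short lists the share was 75.7% (64.0 to 85.2). There were 24 DMSO-only regions that overlapped no other mark or protein mapped in E2-treated T-47D cells, and 20 of these held the core. Where a core was present, it lay a median of 17.5 bp from the summit of DMSO-only, 24.5 bp of shared and 32.5 bp of E2-only regions. For shared regions these were summits of the E2 list. Taken from the summits of the DMSO list instead, shared regions held the core in 81.7% of windows, at a median of 16.5 bp. The order of shared and DMSO-only regions thus depended on the list that gave the summit.

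More than 1 copy of the core was found in 22.9% of shared, 9.09% of DMSO-only and 2.39% of E2-only windows, and in 0.488% of start sites. The bases next to the core also differed from those of start sites. Counting the base before CACGTG on both strands, T was found at 40.6% of the flanks at start sites, at 25.4% in E2-only, 16.8% in shared and 10% in DMSO-only regions, and at 15% in Ishikawa MAX with DMSO. The base C made up 31.5% at start sites and 48.7%, 41.7% and 41.4% in shared, E2-only and DMSO-only regions.

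Other motifs were searched on both strands. CACGCG was in 30.3% of shared, 27.8% of E2-only and 9.09% of DMSO-only windows, and in 10.8% of start sites. CATGTG was in 11.9%, 5.36%, 10.2% and 5.19%. At least 1 of these and CACGTG was present in 88.1% of shared, 77.3% of DMSO-only and 49.1% of E2-only windows, against 20.3% of start sites. CAGCTG, an E-box of other helix-loop-helix proteins, was in 11.9%, 8.62% and 11.4% of shared, E2-only and DMSO-only windows and in 13.9% of start sites. The full estrogen response element without mismatch was in 0 of 109 shared, 0 of 1380 E2-only and 1 of 88 DMSO-only windows, and in 0.0403% of start sites. TGANTCA, the AP-1 site, was in 2.75%, 1.30% and 1.14%, and in 3.07% of start sites. Mean GC content of the windows was 69.3% in shared, 72.2% in E2-only and 54.3% in DMSO-only regions and 65% at start sites, and its part in these shares was not tested.

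At the level of genes, 142 of 20136 protein-coding genes (0.705%) had a MAX region within 250 bp of a start site with DMSO and 1414 (7.02%) with E2. In both lists were 105 genes, in the E2 list but not in the DMSO list 1309 (6.5%), and 37 in the DMSO list alone. H3K4me3 with E2 was at 1368 of the 1414 genes, MYC with E2 at 36.8% and Ishikawa MAX at 42.3%. Of the 142 genes of the DMSO list, 91.5% had Ishikawa MAX and 31.7% MYC with E2. Among the 11850 genes with H3K4me3, 11.5% had MAX with E2, which is the level to set beside groups made up mostly of active genes.

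Of 13 genes of the MAX network itself, 4 had MAX at a start site with E2 and 0 with DMSO: MXD3 and MXD4, repressive partners of MAX, at folds of 17.5 and 14.8, MGA, a large MAX-binding repressor, at 10.1, and MLXIP, which works with the related MLX, at 9.85. Of 16 genes of the SIN3 complex, the co-repressor that MXD proteins bring in, 4 had MAX with E2 and 0 with DMSO. These were the deacetylases HDAC1 and HDAC2, at folds of 11 and 13.2, the histone-binding RBBP4, at 13.2, and ING2, a reader of H3K4me3, at 12.4. The shares with E2 were 30.8% (9.09 to 61.4) in the network and 25% (7.27 to 52.4) in the complex. Both intervals include the 11.5% of genes with H3K4me3. Only 0.705% of all genes had MAX with DMSO, so 0 of 13 or of 16 does not set these groups apart.

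Ribosome production gave 13 of 43 genes with E2 (30.2%, 17.2 to 46.1) and 4 with DMSO, while 32 of the 43 had Ishikawa MAX. MYC with E2 was at a start site of 2 of the 43 (4.65%), against 7.32% of all protein-coding genes. That was the lowest MYC share of the gene groups, the others lying between 10% and 31.25%. NCL, the nucleolar protein nucleolin, had folds of 12.1 with DMSO and 21.2 with E2 and 3 cores in its window, and 17.5 and 19.6 in Ishikawa cells. NPM1, nucleophosmin, had a shared region with folds of 6.98 and 11 and a further E2-only region at another of its start sites with 11.4. NOP14, of the small-subunit processome, had 6.98 and 14.4. In the E2 list but not in the DMSO list were, among others, NOP56 of the snoRNA particles (fold 17.3), UBTF and POLR1E of the RNA polymerase I machinery (12.1 for the stronger of the regions of UBTF, and 9.61), WDR43 (18.4), GNL3, nucleostemin (8.33), and TCOF1, treacle (12). RRP12 was in the DMSO list alone, with a fold of 8.79, and in SIN3A in full medium at 27.5, a region that 1 of the short lists also held.

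Nucleotide and polyamine synthesis had 13 of 32 genes with E2 (40.6%, 23.7 to 59.4), and 4 with DMSO. CAD, which starts pyrimidine synthesis, was equal in both lists, with folds of 11.9 and 11.9, and had 22 and 14 summit tags. ATIC, of the last steps of purine synthesis, had 6.60 and 16.1, DHODH, of pyrimidine synthesis, 5.47 and 11.6, and NME1, a nucleoside diphosphate kinase, 7.85 and 8.44. In the E2 list alone were SHMT1 (18.9), ADSL (12.8), MTHFD2 (11.7), TK1 (11.7), MTHFD1L (11.4), GMPS (10.0), UCK2 (9.34), CTPS1 (9.26) and AMD1 (8.86). Translation factors and aminoacyl-tRNA synthetases followed with 8 of 38 genes, the highest fold being 16.1 at GARS1, and 1 gene, EIF2S1 (fold 6.82), was found with DMSO and not with E2. Glycolysis had 5 of 16 genes with E2 and 0 with DMSO: PKM (12.2), PFKP (10.9), LDHA (9.93), GPI (9.87) and ALDOA (8.36), where MYC with E2 was also at PKM and LDHA.

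Circadian genes, of which several are known to be driven through E-boxes, had 8 of 20 with E2 (40%, 19.1 to 63.9) and 5 of 20 with DMSO (25%). PER1, a repressor of the clock, had folds of 10.1 and 26.3, PER2 11.1 and 16.4, and CRY2, another of these repressors, 6.05 and 13.0. NR1D2, a nuclear receptor of the clock, had 7.39 and 18.4. CRY1 (12.6), TEF (13.6), DBP (10.5) and NR1D1 (9.36) had an E2 region at a start site, and CIART only a DMSO region (5.28). Of these start-site regions, those of NR1D2 and TEF held CACGTG within 100 bp of the summit, and those of PER1, PER2, CRY1, CRY2, NR1D1, DBP and CIART did not. For the shared regions of PER1, PER2, CRY2 and NR1D2 this was the summit of the E2 list. Their DMSO summits and whole regions were not looked at gene by gene. NR1D1 had in addition a shared region in an intron, 1387 bp from the nearest start of a protein-coding transcript, with folds of 11.4 and 14.8 and 2 cores. Lysosomal genes with a CLEAR element, a site of the TFEB family that contains an E-box, had 9 of 33 with E2 and 2 with DMSO. LAMP1, a lysosomal membrane protein, had folds of 9.93 and 12.7 and 4 cores in its window, and FNIP1, which regulates nutrient signalling at the lysosome, 5.68 and 23.2.

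The core nearest to the summit, with 12 bases on either side, is shown for those shared regions of these groups that held at least 2 copies and lay outside annotated UTRs.
NPM1, chr5:170815566-170815595: aaccgctgggagCACGTGgttgcCACGTGg
NR1D2, chr3:23987495-23987524: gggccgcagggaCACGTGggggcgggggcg
LAMP1, chr13:113951400-113951429: gccgctgcgggtCACGTGtcggcctgcatc
FNIP1, chr5:131132787-131132816: ggggggccgcatCACGTGgcggcgcgcgga

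Cell cycle genes had 7 of 32 with E2 (21.9%, 9.28 to 40) and 1 with DMSO. The latter was CDK4, a kinase of the G1 phase, with folds of 7.95 and 9.25. At CCNE2 only the wider E2 region reached to within 250 bp of a start. The others were MCM7 (12.7), PCNA (11.6), E2F1 (9.67), E2F2 (8.94) and MCM4 (7.40). Mitochondrial biogenesis and chaperones had 1 of 26, HSPA9, with a fold of 10.5.

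Genes of the estrogen response itself did not stand above the level of all genes. Of 30 genes known to be induced by estrogen, 1 had MAX with E2 (3.33%, 0.0844 to 17.2, a range that includes 7.02%), 0 with DMSO and 0 had Ishikawa MAX. It was MYBL1, with a fold of 13.2, where MYC also was found. Of 15 luminal breast transcription factors, 0 had MAX in either list, which allows up to 21.8%, although 14 of the 15 carried H3K4me3.

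Counted only over genes with H3K4me3, MAX with E2 was at 31% of ribosome production genes, 44.8% of nucleotide and polyamine genes, 50% of circadian genes, 35.7% of glycolysis genes, 30% of the MAX network, 26.7% of lysosomal genes, 25% of the SIN3 complex, 21.6% of translation genes and 20.7% of cell cycle genes, against the 11.5% of all such genes. It was at 4.17% of the estrogen-induced and of the mitochondrial genes with H3K4me3 and at 0 of the luminal factors. These shares rest on few genes, only 10 in the MAX network, and no intervals were computed for them. Over all members of each group, only the intervals of the ribosome, nucleotide, circadian and lysosome groups lay above 11.5%. Those of all other groups, also of the estrogen-induced, mitochondrial and luminal genes, included 11.5%.

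**Figure D5:**
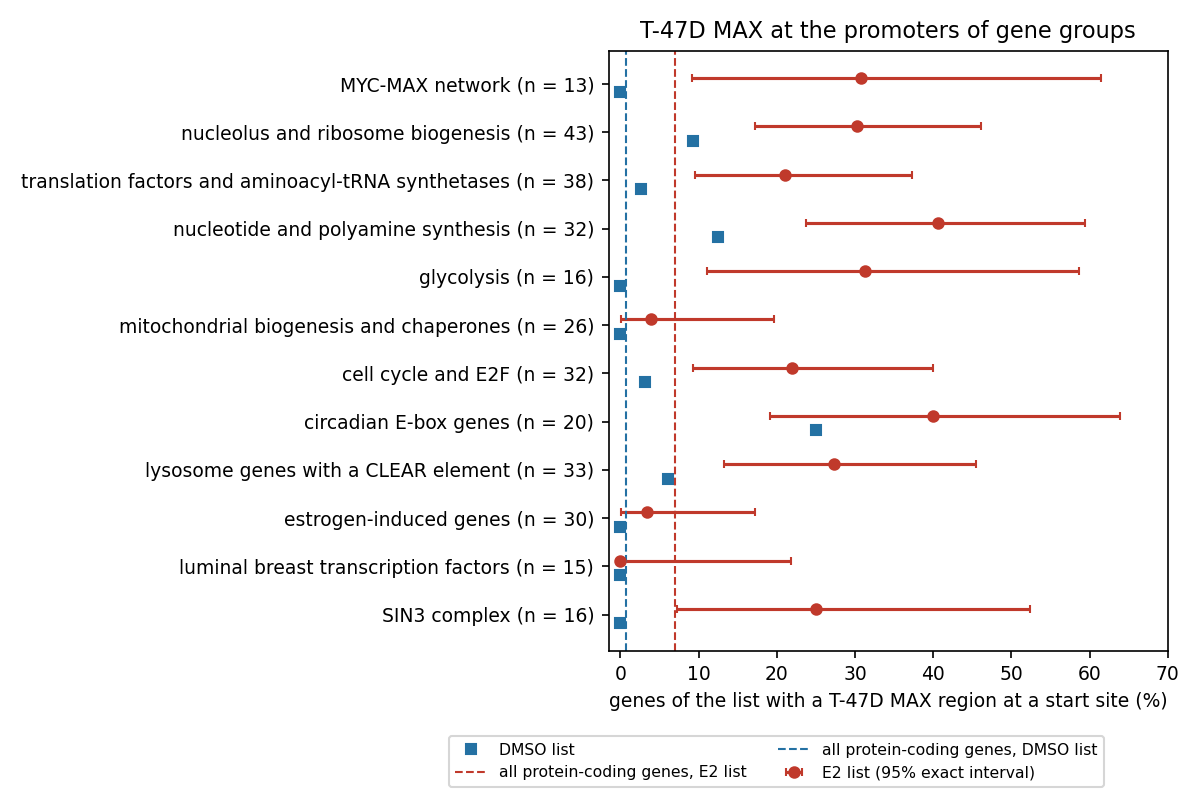
Share of the genes of each group with a T-47D MAX region within 250 bp of a start site (x axis, percent), in the E2 list (circles, with exact 95% intervals) and the DMSO list (squares). Dashed lines mark all protein-coding genes at 7.02% with E2 and 0.705% with DMSO: intervals of 9 groups lie above the first line, and 4 of them (ribosome, nucleotide, circadian and lysosome) also lie above the 11.5% of genes with H3K4me3, and mitochondrial, estrogen-induced and luminal genes reach below the first line.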

How the data were processed

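Peak lists from 45 of 49 libraries were used, and 4 input libraries without a list were left out. According to the submitters' processing notes, the authors aligned reads to hg19 with Bowtie 1.1.2 and called peaks for each library with MACS2 2.1.0.20140616, and the methods give a q-value cutoff of 0.05. The deposited lists hold only stronger peaks, the lowest −log10 p of all 45 lists being 10.0, so weaker peaks are not seen here. The deposited fold enrichment is the ratio of summit pileup to local background that MACS2 gave the authors. The deposited −log10 p and −log10 q values are those of the same Poisson comparison, and the deposited score is 10 times the −log10 p. Read depth is not given in the sources used here, and counts per library were not analysed here.

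Regions were joined by an overlap of at least 1 bp. Summit tags and background were solved from fold, taken as (tags + 1)/(background + 1), and the Poisson p-value. Summits within 250 bp of any transcript start (GENCODE 44 on GRCh37) were called promoter, and a gene was counted when a region reached to within 250 bp of a start of its transcripts. Regions of chrM, whose list ends pass the length of the reference, were left out of sequence and annotation. Motifs were searched on both strands with Python 3.11.15, numpy 2.4.6, scipy 1.17.1 and pysam 0.24.0, and the scripts were tested on simulated regions. Each treatment had 1 MAX library, so no test was run.

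The classes and gene lists were chosen with earlier results of these data known. Genes are named if they belong to these lists, or if their region is among the strongest by −log10 p (shared regions by the lower of both values): 10 shared, 10 E2-only and 5 DMSO-only regions, 10 shared and 15 E2-only regions at protein-coding starts, and 5 E2-only regions outside promoters and H3K4me3. Windows in annotated UTRs (GSE1) and on chromosome 8 are not printed. Alternatives tried were the overlap, fold minimum, list length, promoter width, treatment of the second list, motif window and RNAPII replicate, and, added after seeing the data, the removal of regions of 6 short lists and the summit of the DMSO list.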

Additional observations from a re-analysis of the deposited data

Results flagged for a closer look

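The number of MAX regions moved in opposite directions in the 2 cell lines. The log2 ratio of E2 over DMSO was 2.91 in T-47D cells (199 and 1492 regions) and -0.75 in Ishikawa cells (3368 and 2002 regions), so Ishikawa minus T-47D was -3.66. With 1 library per cell line and treatment the difference was not tested. Beside it stand the backgrounds at the summits, with medians of 4.23 tags for DMSO and 1.04 for E2 in T-47D cells and of 3.93 and 2.5 in Ishikawa cells.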

How the results depend on the processing

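For the 32 results, 100 values were computed under other settings: 54 stayed within the counting interval of the share reported, or within 1.5 times for ratios and counts of genes, and 46 did not. With a fold of at least 10, the ratio of region numbers was 25.6, 10.1% of E2 regions were shared, and 11 genes with DMSO and 893 with E2 had MAX at a start. By covered length the ratio was 16.1. With 50% reciprocal overlap, 14.6% of DMSO and 1.94% of E2 regions were shared. With that overlap, in the order shared, E2-only and DMSO-only, H3K4me3 covered 11.9%, 8.97% and 4.55%, TAF1 30.3%, 35.9% and 1.14%, RNAPII 53.2%, 41% and 3.41%, and Ishikawa MAX 79.8%, 23% and 62.5%. For H3K4me3 and RNAPII this put shared over E2-only regions, the opposite of the order by 1 bp. It also gave 22.5% of E2-only regions in MYC and 1.95% of E2-only and 1.14% of DMSO-only regions in RARA. With summits within 100 bp, 46.2% of DMSO regions were shared, and with the E2 list cut to 199 regions 29.1% of DMSO and 28.6% of E2 regions. Promoters of 1000 bp either side held 87.2%, 93.8% and 53.4%, and starts of coding genes alone 76.2% of E2-only regions. With lists of DMSO-treated cells, MYC was at 18.3%, 16.2% and 0%, and E2-only regions were at 89.5% in H3K4me3, 48.4% in TAF1 and 81.4% in RNAPII. With the Ishikawa E2 list alone the overlap was 79.8%, 17.2% and 61.4%, and with its DMSO list alone 31.2% for E2-only regions. The core within 50 bp of the summit was at 55% of shared and 16.6% of E2-only regions, in whole regions at 84.4% and 31.8%, and at DMSO summits at 81.7% of shared regions. Leaving out either RNAPII E2 replicate gave 91.9% to 96.4% of E2-only, 38.6% to 56.8% of DMSO-only and 84.4% to 88.1% of shared regions. The causes were not tested. No paired analysis was possible because MAX had 1 library per treatment. Without regions of the 6 short lists, no share moved outside its interval.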
